A study of Rattus norvegicus with 6 samples.

Results

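The fragments of the cytoplasmic histidine tRNA with anticodon GTG (His-GTG, named HisGTG in the tRNA annotation of the alignments) were described in AR42J cells, a rat cell line derived from the exocrine pancreas. Small RNA libraries came from cells given 200 µM sodium taurocholate, a bile salt, for 30 min (3 libraries) and from untreated cells (3 libraries). Bile salts reach the pancreas in biliary pancreatitis and are given to acinar cells as a laboratory model of it. The labels number the replicates without saying that each was a culture of its own, so p-values cover only how these 6 libraries varied, and that variation may be technical. Reads were assigned to His-GTG when they aligned to a mature tRNA and every such alignment was to a nuclear His-GTG gene. This gave 3485 of 67949 distinct tRNA read sequences and 61568 of 1671615 tRNA reads, a share of 3.68%. A further 155 sequences that also fit another tRNA were left out. Of the 3485 sequences, 428 matched the tRNA without error, 3057 carried the 1 error that the alignments allow, and 305 were seen in all 6 libraries. The error-free sequences carried 35615 reads and the others 25953 reads.

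The tRNA alignments held 338310, 254998 and 306389 reads in the taurocholate libraries and 193750, 348451 and 229717 reads in the untreated libraries. The matching microRNA files held between 2791878 and 3987307 reads per library. The microRNA miR-148a-3p, abundant in pancreas, took 283926 to 421622 RPM, that is reads scaled to a total of 1000000 microRNA reads per library. The acinar microRNAs miR-216a-5p, miR-216b-5p and miR-217-5p lay between 0 and 1.10 RPM, so these defining markers of the labelled cell type were at or near 0. The remaining pancreas microRNA examined, miR-375-3p, had 58.6, 6.08 and 77.5 RPM with taurocholate and 41.4, 2.51 and 7.16 RPM without. Of 5 blood and immune microRNAs 3 had reads, and their sum was 1324 to 2196 RPM with taurocholate and 952 to 1683 RPM without. The sum of the 2 stromal microRNAs was 9936 to 13548 RPM with taurocholate and 12078 to 13842 RPM without. The liver microRNA reached at most 26.7 RPM and the 3 muscle microRNAs together at most 82.7 RPM. The part of other cells in the results below was not tested, and in such bulk RNA fewer cells of a type and less RNA per cell cannot be told apart. The first taurocholate library stood apart from the others. Its reads ended in guanosine in 38.1% of His-GTG reads, against 13.9% to 18.6% in the other 5 libraries, and in 27.7% of the reads of other nuclear tRNAs, against 9.21% to 11.6%. Only 5′ and internal reads of mature tRNAs shorter than 51 nt were counted for this.

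Histidine tRNA differs from the other cytoplasmic tRNAs at its very first position. In eukaryotes the enzyme THG1, called THG1L in mammals, adds a guanosine ahead of the transcribed first base after the leader has been cut away, and this extra base, G-1, is what histidyl-tRNA synthetase recognises. Fragments made from the mature tRNA are grouped by the part they keep. The short 5′ fragments are called tRF-5, the longer 5′ pieces cut in the anticodon loop are tiRNA-5, internal pieces are i-tRF, and the trailer cut from the precursor is tRF-1. The 5′ tiRNA of human histidine tRNA is known from hormone-dependent cancer cells and from activated macrophages. Here 5′ fragments were those that start within 3 nt of the first base, with tRF-5 of up to 30 nt and tiRNA-5 of at least 31 nt.

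All 10 annotated His-GTG genes, 5 on chromosome 2, 3 on chromosome 3, 1 on chromosome 5 and 1 on chromosome 19, shared the same mature sequence of 75 nt, including the CCA tail. It carries no G-1, and each of the 10 genes encodes C at the base just ahead of position 1. A read with any other base there could therefore be listed only under a precursor tRNA, with its single allowed error on that base, and never under the mature tRNA. These reads fall outside the mature alignments and were collected as a second set, called extra-base reads. It held 118 sequences and 10386 reads. The mature tRNA is shown first with its anticodon, positions 34 to 36, in capitals. Below it are the 4 forms of the tiRNA-5 that ends at position 33, the base before the anticodon, with the extra base in capitals, and the same tiRNA-5 without it.
mature His-GTG tRNA: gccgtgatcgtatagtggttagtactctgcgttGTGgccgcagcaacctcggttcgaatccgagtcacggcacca
34-nt tiRNA-5 with extra U (read as T): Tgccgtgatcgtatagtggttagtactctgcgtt
34-nt tiRNA-5 with extra G: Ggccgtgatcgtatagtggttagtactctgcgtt
34-nt tiRNA-5 with extra A: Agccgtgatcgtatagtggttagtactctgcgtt
34-nt tiRNA-5 with the encoded C: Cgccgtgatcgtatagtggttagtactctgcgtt
33-nt tiRNA-5 from the first base: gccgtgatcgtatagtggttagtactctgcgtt

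Most extra bases were not guanosine. Over all libraries the extra base was U in 7983 of 10386 reads (76.9%), G in 1453 (13.99%), A in 786 (7.57%) and the encoded C in 164 (1.58%). The 34-nt tiRNA-5 with U had 150, 343 and 333 reads in the taurocholate libraries and 295, 474 and 330 reads in the untreated libraries. The same tiRNA-5 with G had 34, 109 and 129 reads with taurocholate and 75, 156 and 199 reads without. With A it had 21, 46 and 51 reads against 41, 64 and 57, and with the encoded C it had 2, 13 and 11 reads against 6, 5 and 8. The tiRNA-5 that starts at the first base had 83, 193 and 162 reads with taurocholate and 169, 336 and 290 reads without. In each of the 6 libraries the form with U outnumbered each of the other 4.

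The extra-base reads made up 24.8%, 20.6% and 21.6% of His-GTG 5′ reads in the taurocholate libraries and 21.7%, 26.03% and 23.3% in the untreated libraries, counting 45163 5′ reads in all. The groups overlapped. The mean was 22.3% ± 2.20 with taurocholate and 23.7% ± 2.17 without (SD, n = 3 each), a difference of -1.37 percentage points (two-sided exact permutation test, p = 0.5, adjusted p = 0.75 over 9 measures). With 3 libraries against 3 this test cannot go below 0.1. The same reads set against the first-base reads only were 55.3% ± 1.997 with taurocholate and 50.8% ± 3.47 without, a difference of 4.49 points in the other direction (exact permutation p = 0.2). These totals include reads with an error, which most extra-base reads cannot hold besides their extra base. Over error-free reads, the extra base itself not counted as an error, the share of 5′ reads was 34.4% ± 2.30 with taurocholate and 36.3% ± 1.40 without. Against error-free first-base reads only, it was 69.1% ± 2.43 with taurocholate and 64.8% ± 4.19 without. Among the extra bases of all reads, G took 9.44%, 12.1% and 15.8% with taurocholate and 12.9%, 12.9% and 22.3% without (exact permutation p = 0.4). U took 82.7%, 78.1% and 75.8% with taurocholate and 77.0%, 78.4% and 67.1% without (exact permutation p = 0.5).

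**Figure D1:**
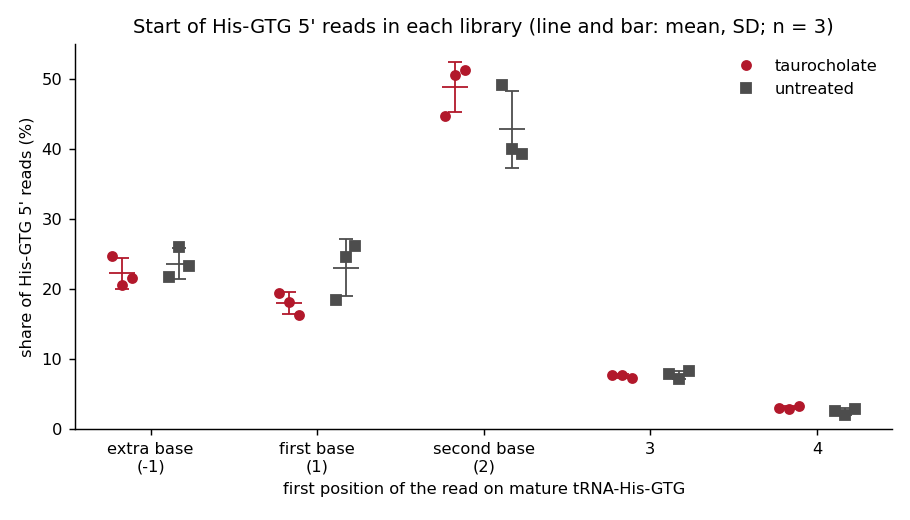
Share of His-GTG 5′ reads, in percent, by the first position of the read, for 3 taurocholate and 3 untreated libraries (points), with mean and SD. Over all reads, with and without an error, starts at the second base are the most frequent in all 6 libraries, and 20.6% to 26.03% of 5′ reads carry an extra base. Over error-free reads the extra base is ahead of the second base in untreated libraries 2 (37.9% against 33.2%) and 3 (35.3% against 32.1%), and behind it in the others.

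Over all reads, with and without an error, the most frequent start was neither the extra base nor the first base but the second base. Reads from the second base made up 44.8%, 50.6% and 51.4% of 5′ reads, extra-base reads included, in the taurocholate libraries and 49.2%, 40.1% and 39.3% in the untreated libraries. Reads from the first base made up 19.6%, 18.2% and 16.4% with taurocholate and 18.5%, 24.7% and 26.2% without. Starts at position 3 took 7.18% to 8.33% and starts at position 4 took 1.98% to 3.34% over all libraries. For starts at the first and at the second base the groups overlapped, since the first untreated library lay within the range of the taurocholate libraries. Most extra-base reads cannot hold a further error, so the ranking over all reads counts against them. Over error-free reads, second-base starts took 38.2%, 42.8% and 42.9% with taurocholate and 39.2%, 33.2% and 32.1% without. Extra-base reads took 36.7%, 32.1% and 34.4% with taurocholate and 35.8%, 37.9% and 35.3% without. The extra base was thus the most frequent error-free start in untreated libraries 2 and 3, and the second base in the others.

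The extra base was set against 26 other tRNA groups, where a group is a tRNA, or several that share their reads, with at least 500 5′ reads over the 6 libraries. An extra base that the genes do not encode was found on 22.6% of His-GTG 5′ reads and on 0.262% of those of the next group, Ser-AGA/Ser-TGA. Of the 27 groups, 16 had no such read among 750 to 45108 5′ reads, which allows a share of up to 0.400% and 0.00665%, counting 3 reads as the limit. For all other nuclear tRNAs pooled, the share with any extra base was 0.123% ± 0.0319, against 23.0% ± 2.10 for His-GTG (SD, n = 6 libraries), with His-GTG higher in 6 of 6 libraries by 20.5 to 25.9 points. The difference averaged 22.9 points (exact sign-flip permutation test over the 6 libraries, p = 0.03125, the smallest this test can give). Without encoded bases the values were 22.6% ± 2.16 for His-GTG and 0.00497% ± 0.00417 for the other tRNAs. For 379 of the 403 mature tRNA references the place of the base ahead of position 1 could be found on the precursor. On the remaining references no extra base could be scored.

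His-GTG also ranked first for starts at the second base, at 46.0% of pooled 5′ reads, followed by Cys-GCA at 37.5% and Gly-TCC at 12.5%. With extra-base reads left out of the total, second-base starts were 59.5% ± 5.68 of His-GTG 5′ reads and 2.76% ± 0.600 of those of the other nuclear tRNAs (SD, n = 6), higher for His-GTG in 6 of 6 libraries by 48.6 to 63.3 points (exact sign-flip permutation p = 0.03125). The second-base contrast was added after the data had been seen, so its p-value is no independent test. First-base starts were 20.5% for His-GTG, 6.46% for Cys-GCA and between 65.5% and 98.8% in the other 25 groups. A high share of second-base starts was thus also seen for Cys-GCA, which had no unencoded extra base among its 2600 5′ reads.

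**Figure D2:**
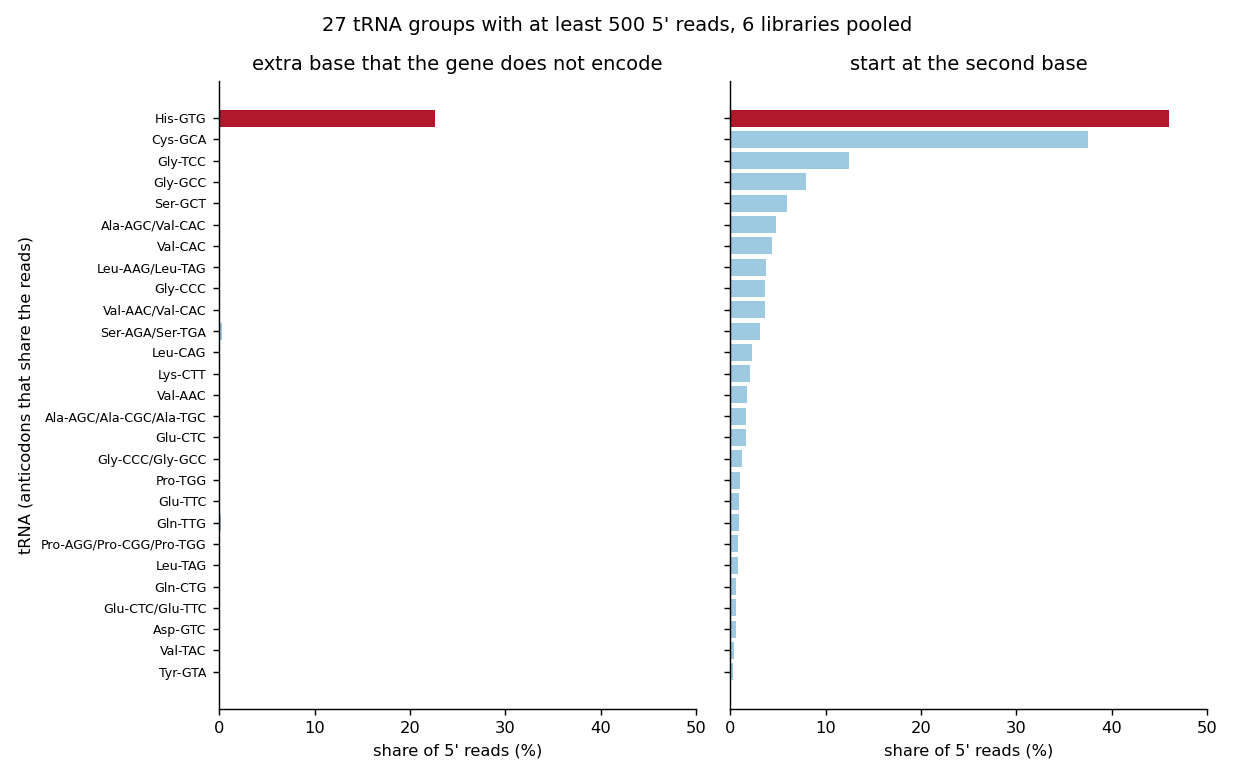
Share of 5′ reads, in percent, with an extra base that the gene does not encode (left) and with a start at the second base (right), for 27 tRNA groups, 6 libraries pooled. His-GTG is the top bar in both panels, at 22.6% and 46.0%, and Cys-GCA is next on the right at 37.5%.

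The extra base went with where the fragment ended. Fragments that end at position 30 or 31 are shown for the second-base start and for the extra U, and a shorter fragment that ends at 26 for the extra U, with the extra base in capitals.
29-nt tRF-5 from the second base, end at 30: ccgtgatcgtatagtggttagtactctgc
30-nt tRF-5 from the second base, end at 31: ccgtgatcgtatagtggttagtactctgcg
31-nt tiRNA-5 with extra U, end at 30: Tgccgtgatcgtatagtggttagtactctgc
32-nt tiRNA-5 with extra U, end at 31: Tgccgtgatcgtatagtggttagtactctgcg
27-nt tRF-5 with extra U, end at 26: Tgccgtgatcgtatagtggttagtact

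Among 5′ reads that ended at position 30, an extra base was present in 9.72%, 8.42% and 8.33% with taurocholate and in 8.58%, 11.4% and 8.56% without. Among those that ended at 31 it was present in 25.2%, 26.9% and 28.01% with taurocholate and in 23.3%, 27.6% and 23.4% without. Among those that ended at 33 it was present in 48.04%, 57.2% and 60.9% with taurocholate and in 54.02%, 51.01% and 48.9% without. Reads that ended before 30 had an extra base in 16.2% to 20.3% and those that ended from 34 to 50 in 26.1% to 36.03%, so the share did not rise steadily with the end, and of these ends it was lowest at 30 and highest at 33 in each library. The share at 33 exceeded that at 30 by 44.2 ± 5.73 points (SD, n = 6; 6 of 6 libraries; exact sign-flip permutation p = 0.03125). Second-base starts made up 41.8% to 55.6% of the 5′ reads ending before 30, 61.6% to 68.9% of those ending at 30, 5.58% to 10.6% of those ending at 33 and 17.8% to 32.97% of those ending from 34 to 50. By read length, 4.15% ± 1.12 of 5′ reads of up to 30 nt and 54.3% ± 4.46 of longer ones had an extra base (SD, n = 6; difference -50.1 points; exact sign-flip permutation p = 0.03125). An extra base makes a read longer by itself, so the split was repeated by last position, which gave 11.5% ± 1.41 for ends up to 30 and 36.8% ± 1.27 for later ends (exact sign-flip permutation p = 0.03125). Reads of 51 nt, the longest length seen, were counted among the later ends, though the fragment may run past their last base. The split by last position and the contrast of ends 33 and 30 were added after the data had been seen. Their p-values are thus no independent tests. Extra-base reads other than those with the encoded C can hold no further error, and over error-free reads alone the shares were 16.7% ± 1.30 at end 30, 36.9% ± 2.64 at end 31 and 65.4% ± 3.89 at end 33 (SD, n = 6).

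The identity of the extra base also changed with the end. G made up 2.61% to 7.46% of the extra bases on reads ending at 30, 9.40% to 15.96% on reads ending at 31 and 16.3% to 33.3% on reads ending at 33. On reads ending at 26 it averaged 4.61% ± 2.76 (SD, n = 6 libraries). G was higher at 33 than at 30 in 6 of 6 libraries, by 17.1 ± 5.27 points (exact sign-flip permutation p = 0.03125). This contrast too was added after the data had been seen, so its p-value is no independent test. U made up 85.6% to 90.0% of the extra bases on reads ending at 30 and 55.2% to 72.1% on reads ending at 33. With and without taurocholate G was at 16.3%, 21.2% and 24.6% against 18.0%, 22.1% and 33.3% of the reads ending at 33.

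**Figure D3:**
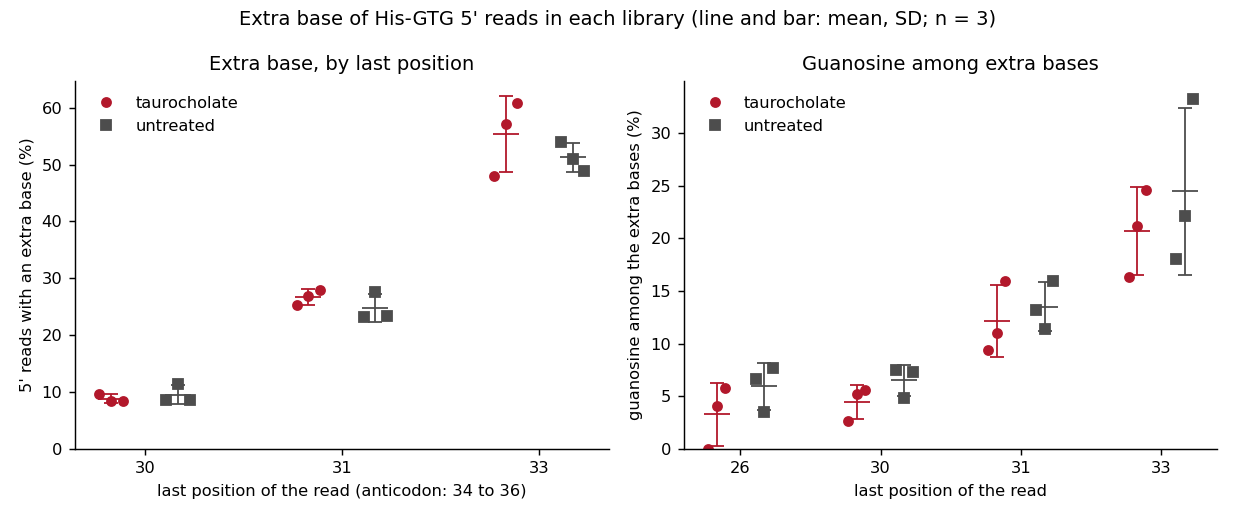
Left, share of His-GTG 5′ reads with an extra base, in percent, by the last position of the read. Right, share of guanosine among the extra bases, in percent. Points are libraries and bars show mean and SD (n = 3). Of the ends shown, both shares are highest at position 33, just before the anticodon.

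Whether taurocholate changed the abundance of the fragment classes was tested on read counts with edgeR's quasi-likelihood test over all 237 tRNA fragment features. None of the 6 features specific to His-GTG was called at an adjusted p under 0.05, against a background of 0% of all features called and 9.7% at an unadjusted p under 0.05. The feature with an unadjusted p under 0.05 was 1 of the 6, and DESeq2 called 1 of the 6, against 0.422% of all 237 features. Both were the tRF-1 trailer, which comes from the precursor and is not among the mature reads. Another of the 6, precursor reads, joins leader pieces ahead of position 1 with the extra-base reads. The tRF-5 and tiRNA-5 features of this table therefore hold no extra-base reads.

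The short tRF-5 class had 10564, 24267 and 17550 RPM, here scaled to the tRNA reads of the library, with taurocholate and 18410, 13612 and 14801 RPM without. The highest and the lowest library were both taurocholate libraries. Its log2 fold change was 0.31 (SE 0.30, edgeR adjusted p = 0.74). The tiRNA-5 class had 3775, 5561 and 3192 RPM with taurocholate and 4243, 6187 and 5559 RPM without (log2 fold change -0.19, SE 0.28). Within it, reads of 51 nt, the longest length seen, held 1963, 1451 and 326 RPM with taurocholate and 274, 1891 and 292 RPM without. Such reads run past the anticodon, so not every read of this class was cut in the anticodon loop. Internal fragments had 10517, 12651 and 16838 RPM with taurocholate and 17507, 19036 and 19363 RPM without. All 3 taurocholate libraries lay below the untreated ones, with a log2 fold change of -0.35 (SE 0.16, edgeR adjusted p = 0.48). The 3′ fragments, tRF-3, were scarce, at 284, 141 and 219 RPM with taurocholate against 237, 181 and 252 RPM without. The tiRNA-3 class, the matching 3′ pieces, held at most 21.8 RPM in any library and did not pass the filter on low counts. The median log2 fold change was -0.07 over the 6 His-GTG features and 0.02 over all 237.

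As shares of His-GTG reads, tRF-5 averaged 48.5% ± 7.66 with taurocholate and 39.2% ± 5.66 without (SD, n = 3 each; exact permutation p = 0.2, adjusted p = 0.45). Internal fragments averaged 38.7% ± 7.92 with taurocholate and 46.8% ± 3.04 without (exact permutation p = 0.2, adjusted p = 0.45). The tiRNA-5 class averaged 12.2% ± 3.37 with taurocholate and 13.4% ± 2.71 without (exact permutation p = 0.6). These class shares count mature-aligned reads only and leave out the extra-base reads. Extra-base reads made up 54.3% ± 4.46 of all 5′ reads of tiRNA-5 length (SD, n = 6 libraries). Among those of tRF-5 length they made up 4.15% ± 1.12. The tiRNA-5 share thus leaves out a large part of the long 5′ fragments. His-GTG reads as a whole took 2.51%, 4.26% and 3.78% of tRNA reads with taurocholate and 4.04%, 3.90% and 3.9997% without (exact permutation p = 0.7), the first taurocholate library lying below all others.

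Splitting the 5′ classes by their start gave 6 His-GTG features among 262, of which 0.382% were called in the whole table and 9.54% had an unadjusted p under 0.05. None of the 6 passed either threshold with edgeR, and DESeq2, which called 1.91% of the table, called none of the 6. The tiRNA-5 with an extra base had 4401, 6875 and 5160 RPM with taurocholate and 5239, 6222 and 5428 RPM without (log2 fold change 0.11, SE 0.22, edgeR adjusted p = 0.88). Between 2.46% and 37.1% of extra-base reads per library were 51 nt long. The tiRNA-5 from the first base had 2776, 4200 and 2441 RPM with taurocholate and 3365, 4698 and 4466 RPM without (log2 fold change -0.24, SE 0.28). The short fragments that start after the first base had 9612, 21635 and 15663 RPM with taurocholate and 16413, 11700 and 12324 RPM without (log2 fold change 0.35, SE 0.30). The short fragments with an extra base were the smallest of the 6, at 325, 847 and 555 RPM with taurocholate against 1053, 746 and 753 RPM without. In all 6 features the groups overlapped.

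**Figure D4:**
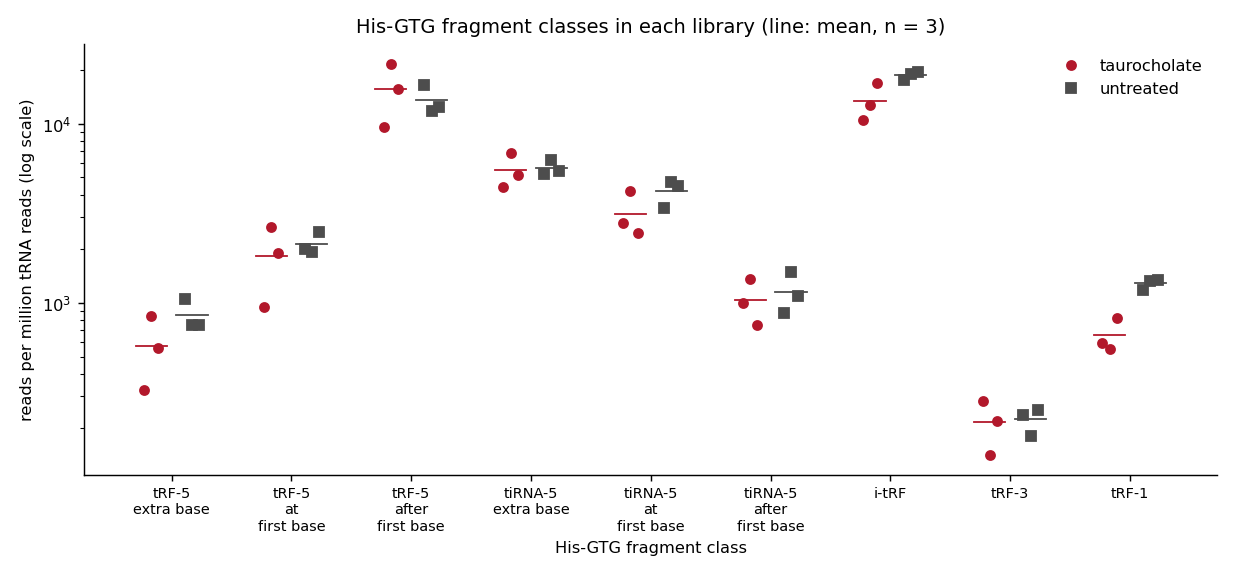
RPM (reads scaled to the tRNA reads of each library, log scale) for the His-GTG fragment classes in 3 taurocholate and 3 untreated libraries, with the mean as a line. The groups lie apart for internal fragments (10517 to 16838 against 17507 to 19363) and for the tRF-1 trailer (549 to 826 against 1182 to 1341), and overlap in the other classes.

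The last position of the reads was counted next, a tabulation added after the data had been seen. Of 729 position features over all tRNAs, 0% were called by edgeR or by DESeq2, and 14.7% had an unadjusted p under 0.05 with edgeR. Of the 43 His-GTG position features, 12 (27.9%) had an unadjusted p under 0.05 with edgeR, 2 higher (4.65%, against 7.68% of the whole table) and 10 lower (23.3%, against 7% of the whole table) with taurocholate. The trailer tRF-1 is 1 of the 10. With DESeq2 9 of the 43 (20.9%) had an unadjusted p under 0.05, against 9.47% of the table. The 2 higher ones were internal reads that ended at 31 and at 52. Internal reads that ended at 31 had 1265, 1145 and 1191 RPM with taurocholate and 908, 746 and 953 RPM without (log2 fold change 0.66, SE 0.21, edgeR adjusted p = 0.26). Internal reads that ended at 33, 2 bases later, had 1448, 1475 and 1824 RPM with taurocholate and 2741, 2038 and 2573 RPM without (log2 fold change -0.46, SE 0.18, edgeR adjusted p = 0.29). The taurocholate libraries were thus all higher at 31 and all lower at 33, and neither change passed the adjusted threshold.

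The other abundant ends of internal reads lie past the anticodon, at 52 and 53. Internal reads that ended at 53 had 3296, 4282 and 7037 RPM with taurocholate and 7448, 9402 and 8410 RPM without (log2 fold change -0.68, SE 0.23, edgeR adjusted p = 0.26). Those that ended at 52 had 1168, 1424 and 1727 RPM with taurocholate and 991, 1268 and 1162 RPM without, and here the groups overlapped. Among 5′ reads, those ending at 33 had 1280, 3533 and 2807 RPM with taurocholate and 3985, 3966 and 5328 RPM without (log2 fold change -0.66, SE 0.31, edgeR adjusted p = 0.34). Those ending at 30, the most frequent end, had 6997, 17941 and 12618 RPM with taurocholate and 12088, 9404 and 9098 RPM without. Reads that ended at position 36, the last base of the anticodon, were rarer, with 65.0, 66.7 and 65.3 RPM with taurocholate and 165, 207 and 135 RPM without (log2 fold change -1.21, SE 0.32, edgeR adjusted p = 0.24).

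**Figure D5:**
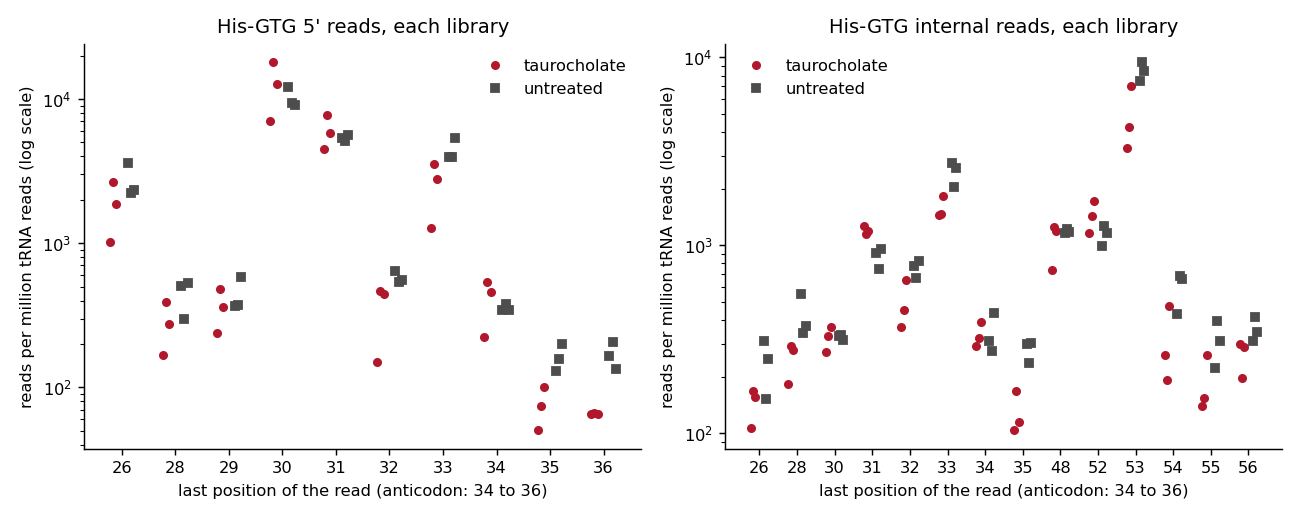
RPM (reads scaled to the tRNA reads of each library, log scale) by the last position of His-GTG 5′ reads (left) and internal reads (right), each library a point. All taurocholate libraries lie above all untreated ones only at 31 among internal reads. All lie below them at 32, 33, 35 and 36 among 5′ reads and at 28, 32, 33, 35, 53 and 56 among internal reads.

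A ratio within each library removes the scaling between libraries. The log2 ratio of His-GTG reads ending at 31 to those ending at 33 was 1.08, 0.84 and 0.59 with taurocholate and -0.10, -0.04 and -0.27 without, a difference of 0.97 (exact permutation p = 0.1, the smallest possible, adjusted p = 0.175 over 21 added measures). The groups did not overlap for extra-base reads (0.88, 0.06 and -0.08 against -0.78, -0.52 and -0.99), for first-base reads (0.54, 0.58 and 0.15 against -0.30, -0.26 and -0.53) or for second-base reads (4.06, 3.87 and 4.12 against 3.26, 2.74 and 2.64). The last base was counted on 5′ and internal reads shorter than 51 nt, with extra-base reads left out. The share of these reads whose last base was U was 30.2%, 39.9% and 43.9% for His-GTG with taurocholate and 51.8%, 49.9% and 49.9% without. In the other nuclear tRNAs it was 29.4%, 41.6% and 42.7% with taurocholate and 51.4%, 45.5% and 46.1% without. The gap between His-GTG and the other tRNAs did not differ between the groups beyond their overlap (0.11 ± 1.64 points with taurocholate and 2.89 ± 2.19 points without, SD, n = 3 each; exact permutation p = 0.3), so the shift at the last base was not shown to be particular to His-GTG. Without the first taurocholate library, whose reads often ended in G, the ratio difference was 0.85 and the difference in reads ending in U was -8.67 points, against -12.6 points with it. With extra-base reads left out, the mean length of 5′ reads between 26 and 40 nt was 29.5 ± 0.0233 nt with taurocholate and 29.8 ± 0.172 nt without (exact permutation p = 0.1). In the other tRNAs it was 31.5 ± 0.193 nt and 31.9 ± 0.0840 nt (exact permutation p = 0.1).

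Single read sequences were tested over 2233 sequences, of which 148 were His-GTG, out of 3603 distinct His-GTG sequences with and without an extra base. edgeR called 0% of the table and gave 14.1% an unadjusted p under 0.05. For His-GTG 39 of the 148 (26.4%) had an unadjusted p under 0.05, with 10 higher (6.76%, against 6.99% of the table) and 29 lower (19.6%, against 7.12% of the table) with taurocholate. DESeq2 called 3 of the 148 (2.03%) at an adjusted p under 0.05, all lower, a share near the 1.97% it called in the whole table. These 3, singled out after their values were seen, are a tiRNA-5 from position 1 to 33 with a changed last base (log2 fold change -1.40), an internal fragment from 17 to 33 (-0.93) and an internal fragment from 18 to 53 (-1.13). The sequences printed next are the most abundant internal fragment and those with the smallest unadjusted p in each direction, with a base that differs from the tRNA in capitals.
34-nt internal fragment, 20 to 53: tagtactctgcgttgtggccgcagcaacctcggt
18-nt internal fragment, 14 to 31, higher: agtggttagtactctgcg
19-nt internal fragment, 13 to 31, higher: tagtggttagtactctgcg
36-nt tiRNA-5, 1 to 36, lower: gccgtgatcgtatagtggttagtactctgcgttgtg
36-nt internal fragment, 18 to 53, lower: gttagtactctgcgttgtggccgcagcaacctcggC
38-nt internal fragment, 17 to 54, lower: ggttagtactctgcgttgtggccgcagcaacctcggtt

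The most abundant sequence was the 29-nt tRF-5 from the second base with end at 30, shown above, with 865, 1541 and 1215 reads with taurocholate and 702, 1179 and 633 reads without (log2 fold change 0.53, SE 0.29, edgeR adjusted p = 0.44). The 30-nt form with 1 more base had 517, 571 and 529 reads against 269, 424 and 305 (log2 fold change 0.69, SE 0.22, edgeR adjusted p = 0.30), and is also the first of the 3 higher sequences. The 32-nt tiRNA-5 with extra U and the same end had 313, 422 and 377 reads against 185, 393 and 217 (log2 fold change 0.51, SE 0.24). All 3 of these rank among the 8 most abundant sequences, as do the 31-nt and 34-nt forms with extra U. The 34-nt internal fragment had 257, 313 and 642 reads with taurocholate and 409, 1044 and 549 reads without (log2 fold change -0.76, SE 0.29, edgeR adjusted p = 0.32). The 18-nt and 19-nt internal fragments, with log2 fold changes of 0.98 and 0.81, both ended at 31. The 36-nt tiRNA-5 that keeps the whole anticodon had 4, 5 and 5 reads with taurocholate and 13, 25 and 11 reads without (log2 fold change -1.79, SE 0.35, edgeR adjusted p = 0.30). The 36-nt internal fragment with a changed last base had 2, 2 and 3 reads against 11, 15 and 13 (log2 fold change -2.47, SE 0.37, edgeR adjusted p = 0.30). None of these passed the adjusted threshold.

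Many His-GTG reads carried their single error at the last base, in 28.96%, 31.97% and 31.6% of reads with taurocholate and 34.02%, 27.8% and 29.02% without. For reads ending at 30 it was 39.8%, 45.3% and 46.7% with taurocholate and 50.8%, 39.4% and 42.3% without. A read that ends 1 base earlier and carries 1 added base cannot be told apart from such a read, so an end at 30 in a mismatched read may stand for an end at 29. The most abundant of them was a 29-nt sequence with 373, 1056 and 876 reads with taurocholate and 659, 620 and 432 reads without. It is printed with the changed base in capitals.
29-nt tRF-5 from the second base with a changed end: ccgtgatcgtatagtggttagtactctgT

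The precursor is trimmed at both ends before the tRNA is mature. The trailer, tRF-1, starts just after the mature tRNA and ends in the run of U where transcription stops. It had 594, 549 and 826 RPM with taurocholate and 1182, 1326 and 1341 RPM without, with no overlap (log2 fold change -0.83, SE 0.19, edgeR adjusted p = 0.34, DESeq2 adjusted p = 0.0189). Leader pieces, 572 sequences with 12389 reads, had 5433, 9663 and 6998 RPM with taurocholate and 8697, 6916 and 8045 RPM without. Between 65.7% and 74.7% of them per library ended at the encoded C just ahead of position 1, and a gene on chromosome 3 was the first listed for 1418 to 2205 of the reads per library. The most abundant trailer and leader are shown.
35-nt trailer: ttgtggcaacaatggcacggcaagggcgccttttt
18-nt leader ending at the encoded C: gtggcgttccggtagctc
The 35-nt trailer had 39, 50 and 64 reads with taurocholate and 56, 166 and 81 reads without. Its edgeR log2 fold change was -0.95 (SE 0.28, edgeR adjusted p = 0.30, DESeq2 adjusted p = 0.0494), where DESeq2 called 1.97% of all sequences and edgeR 0%. The leader had 617, 925 and 729 reads with taurocholate and 444, 806 and 537 reads without (log2 fold change 0.36, SE 0.26, edgeR adjusted p = 0.53).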

How the data were processed

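Small RNA was sequenced from 3 taurocholate-treated and 3 untreated AR42J samples. Per the labels' protocols, RNA was deacylated, end-repaired and demethylated before ligation. FastQC, cutadapt and Novoalign 2.07.11 are named in the submitters' processing notes. The deposited values are read counts per distinct sequence, with every tRNA alignment of 16 to 51 nt and at most 1 error. The genome build is not given in the sources used here, so no coordinates are printed. Each sequence entered a library with its own read count, however many genes it fit. Reads with 1 base ahead of position 1 stand under precursors only and were added as a separate set. The members and lists were chosen with earlier results of these data known. Features were tested with edgeR 4.0.16 (TMM, filterByExpr, quasi-likelihood, Benjamini-Hochberg over the whole table) and DESeq2 1.42.0 as an alternative. Only edgeR was tried on simulated data. Shares were tested by exact permutation over libraries in SciPy 1.17.1. RPM is reads scaled to a total of 1000000 tRNA reads of the library. Intervals and floors cover counting error only. Named sequences were the 8 with the highest mean, the 3 of smallest unadjusted p among the higher and among the lower ones (mean 10 RPM or more), the most abundant with and without an extra base in each 5′ class, and the forms that differ in their extra base.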

Additional observations from a re-analysis of the deposited data

How the results depend on the processing

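The comparison of His-GTG with other tRNAs kept its direction under every alternative run. Leaving out 1 library left 5, too few to pass the threshold, with differences of 22.27 to 23.36 points for the extra base, 55.45 to 58.39 points for second-base starts, -51.25 to -48.42 points for short against long reads, and 15.32 to 18.42 points for G at end 33 against end 30. Counting each sequence 1 time turned the last to -2.08 points. Against first-base reads only, the extra-base difference between groups was 4.49 points in place of -1.37. Leaving out 1 library gave -0.833 to 0.0410 points for the His-GTG share, -2.71 to 0.611 points for tiRNA-5, -0.106 to 0.293 points for tRF-3 and -0.0219 to 0.00533 points for tiRNA-3. DESeq2 called 1 His-GTG feature (1 of 237 in all), 1 when split by start (5 of 262 in all), both tRF-1, and 3 sequences (44 of 2233 in all), where edgeR called no His-GTG feature or sequence. Without a filter edgeR called 2 of 3603 His-GTG sequences (125 of 67949 in all), with 72 and 28 of their reads in the first taurocholate library and at most 5 in any other, and 1 of 85 last positions (29 of 3366 in all). The cause was not tested.

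Of log2 fold changes, library totals, which moved the median of all features from 0.02 to -0.12, gave -0.10 for precursor reads, -0.042 for tRF-3, -0.16 for tiRNA-5 after the first base, -0.040 for tiRNA-5 with an extra base and -0.011 for internal reads ending at 30, all positive before. Scaling with microRNAs gave -0.004 for precursor reads, which join the leader pieces and the extra-base reads. Without a filter, tiRNA-5 after the first base were at -0.018, and without 51-nt reads they were at -0.35 and tiRNA-5 with an extra base at -0.007. Leaving out 1 library gave ranges that cross 0 for precursor reads (-0.18 to 0.16), tRF-3 (-0.22 to 0.36), tRF-5 (-0.016 to 0.51), tiRNA-5 (-0.44 to 0.03), tRF-5 at the first base (-0.45 to 0.23), tiRNA-5 after it (-0.22 to 0.30), tiRNA-5 with an extra base (-0.08 to 0.25) and the 29-nt sequence with a changed end (-0.086 to 0.70).

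No label says that replicate numbers pair the libraries. Correlations of same-numbered libraries were -0.20, 0.04 and 0.29 over 237 features, which is too few libraries to settle it. With the replicate block 0 His-GTG features were called, tiRNA-5 after the first base turned to -0.012, and the extra-base share had p = 0.75 in an exact sign-flip test.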
